A study of Penicillium oxalicum with 15 samples.

Results

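The gene described here is cdtC, locus tag PDE_00607, 1 of 9976 genes in the deposited expression table of the filamentous fungus Penicillium oxalicum. It was picked out by its tag, and earlier results of these data were known when it was chosen. The table does not pair tags with names, so the name cdtC and the role as a cellodextrin transporter come from prior knowledge of the species and were not checked against a sequence.

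RNA was measured in mycelia of 3 strains. gClrBID carries an overexpressed internal mutant of the transcription factor ClrB, deltacreA lacks the gene creA, and M12 is the strain the study used as control. All cultures, those of M12 included, first grew for 22 h in Vogel's medium with 2% glucose and were then moved for 4 h to Vogel's medium with 2% (w/v) cellulose or 2% (w/v) glucose, at 30 °C and 200 rpm. The 5 groups were gClrBID on cellulose, gClrBID on glucose, the creA deletion on cellulose, M12 on cellulose and M12 on glucose, with 3 libraries each. The series text calls the 3 libraries biological triplicates and gives no further account of the cultures, so the p-values given here rest on the spread between libraries, which may be technical. The promoter behind the ClrB mutant, the parent of each altered strain and the number of transformants are not given in the sources used here. In bulk RNA from mycelium, fewer expressing cells and less transcript per cell cannot be told apart.

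Cellodextrins are the short glucose chains that cellulases release from cellulose. Cellodextrin transporters are sugar permeases of the plasma membrane that carry them into the cell, where an intracellular beta-glucosidase splits them to glucose, and in the fungus Neurospora crassa such uptake is part of how cellulose is sensed. Cellulase genes in these fungi are switched on by zinc cluster activators such as ClrB and are held down on glucose by the repressor CreA.

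The libraries held 10129678 to 18361245 fragments assigned to genes, worked back from the steps of the FPKM values (fragment counts scaled by gene length and library total). The strain labels were checked on the altered genes. creA stood at 0 to 0.105 FPKM in the 3 creA deletion libraries, from 0 to 2 fragments each, against 407 to 472 FPKM in M12 on cellulose. clrB stood at 456 to 488 FPKM in gClrBID on glucose, against 9.75 to 10.4 FPKM in M12 on glucose. On cellulose clrB went against the label of an overexpressing strain, at 56.0 to 88.8 FPKM in the libraries labelled gClrBID, against 148 to 160 FPKM in M12 (log2 fold change -1.06, adjusted p = 6.6e-07 in limma). Directions drawn from the libraries labelled gClrBID on cellulose rest on that label.

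In M12 on glucose cdtC was close to silent, and in each of the other 4 groups it was among the most abundant transcripts per unit of length. It stood at 2040, 2293 and 2294 FPKM in the gClrBID libraries on cellulose and at 2716, 2839 and 2894 FPKM in the gClrBID libraries on glucose. The creA deletion libraries on cellulose had 3102, 2859 and 2796 FPKM. M12 had 1181, 1211 and 1145 FPKM on cellulose and 1.65, 2.06 and 2.24 FPKM on glucose. The gene was therefore near its floor in 1 of the 5 groups and at or above 1145 FPKM in the remaining 4.

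**Figure D1:**
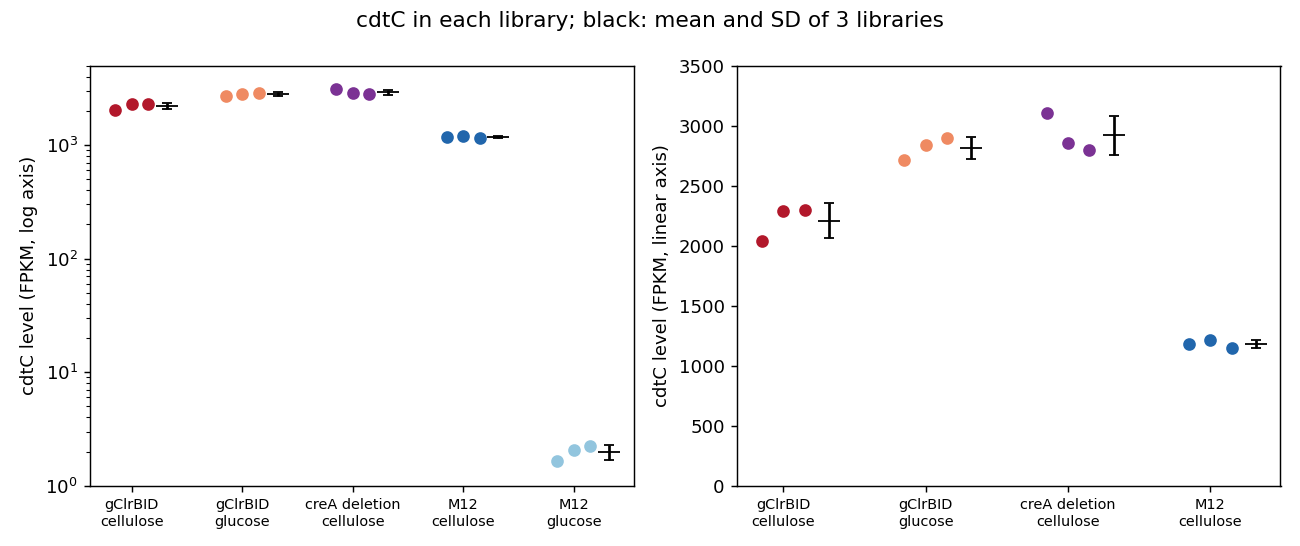
Level of cdtC in each of the 15 libraries, on a log axis for all 5 groups (left) and on a linear axis for the 4 groups with high levels (right). Coloured points are libraries and black bars are the mean and SD of 3 libraries. The gClrBID libraries on glucose (2716 to 2894 FPKM) and the creA deletion libraries on cellulose (2796 to 3102 FPKM) overlap, and all other pairs of groups are apart.

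The abundance of cdtC can be placed among the 9976 genes of each library. Ordered by FPKM, it ranked from 50 to 59 in gClrBID on cellulose, from 68 to 75 in gClrBID on glucose, from 36 to 40 in the creA deletion on cellulose and from 110 to 113 in M12 on cellulose. In M12 on glucose it ranked from 7659 to 7798. As a share of all fragments it took 0.337% to 0.379% in gClrBID on cellulose, 0.449% to 0.478% in gClrBID on glucose and 0.462% to 0.513% in the creA deletion. The share was 0.189% to 0.2002% in M12 on cellulose and 0.000273% to 0.000369% in M12 on glucose.

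The depth behind these values differed widely. The gene was counted over 1653 bases. The values for gClrBID on glucose came from 47541 to 62568 fragments, and those for M12 on glucose from 48, 61 and 56 fragments. For M12 on glucose the exact 95% Poisson intervals, which cover counting error only, ran from 1.22 to 2.19 FPKM, from 1.58 to 2.65 FPKM and from 1.69 to 2.90 FPKM. The transcript was thus detected in every M12 library on glucose, and the intervals of the 3 libraries overlapped. In the other groups the coefficient of variation between libraries was 6.62% for gClrBID on cellulose, 3.24% for gClrBID on glucose, 5.54% for the creA deletion and 2.80% for M12 on cellulose, which exceeded counting error.

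The order of the group means from high to low was 2919 ± 162 FPKM in the creA deletion on cellulose, 2816 ± 91.3 in gClrBID on glucose, 2209 ± 146 in gClrBID on cellulose, 1179 ± 33.0 in M12 on cellulose and 1.98 ± 0.298 in M12 on glucose (SD, n = 3 each). The first 2 of these neighbours did not differ beyond their spread. gClrBID on glucose over the creA deletion on cellulose had a log2 fold change of -0.05 ± 0.07 (SE), with a 95% interval from -0.20 to 0.10 and an adjusted p of 0.50 in limma. In that comparison 84.7% of the 8765 tested genes were called, meaning that they had a Benjamini-Hochberg adjusted p under 0.05, with 43.5% called higher and 41.2% lower. Of 8 enzyme genes for cellulose and xylan degradation set beside cdtC, 2 were called higher and 6 called lower, with a median log2 fold change of -1.02 against 0.02 over all tested genes. Strain and carbon source both differ between these groups, so the comparison places levels only. Every other neighbour in the order differed, as the comparisons that follow show.

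Strong changes came first from the comparison of strains on glucose. cdtC was higher in all 3 gClrBID libraries than in all 3 M12 libraries, and the ratio of the mean FPKM values was 1420. The log2 fold change, here and throughout on the scale of FPKM + 1, was 9.89 ± 0.07 (SE, n = 3 per group) with an adjusted p of 5.6e-22 in limma, and it ranked 5 from the top among 8765 genes, of which 71.8% were called (17.0% higher, 54.7% lower). The added 1 FPKM understates the change, since M12 stood near 2 FPKM, and with voom weights on the fragments the value was 10.48. The rank was 8 with those weights and 6 with a pseudocount of 0.1. In the fit with 1 FPKM added, the 4 genes ranked above it were the cellobiohydrolase genes cel6A (12.39) and cel7A-2 (11.15), the endoglucanase gene cel5B (11.98) and the xylanase gene xyn10A (10.43).

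Of the 8 degradation genes 7 rose and 1 fell on glucose in gClrBID, with a median log2 fold change of 9.80 against -0.26 over all tested genes. bgl2, which encodes a beta-glucosidase, rose by 9.17 and the endoglucanase gene cel7B by 8.73. cel61A, for a lytic polysaccharide monooxygenase, rose by 0.56, and PDE_02736, listed as a beta-glucosidase gene, fell by 1.37. cel61A had only 0 to 1 fragments per library in M12 on glucose and 2 to 7 in gClrBID on glucose. The added 1 FPKM therefore largely sets its value, and the size of its rise is not known. Of 4 regulator genes, clrB (5.41), creA (1.60) and xlnR (0.39, an activator of xylanase genes) rose, and amyR, an activator of amylase genes, fell by 3.26. The rise of cdtC lay between those of xyn10A and bgl2.

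The response of the control strain to the carbon source gave another large change. cdtC was 595 times as high in M12 on cellulose as in M12 on glucose by the ratio of mean FPKM values. The log2 fold change was 8.63 ± 0.07 (SE, n = 3 per group; adjusted p = 1.0e-20, limma), which ranked 4 from the top among the 8765 tested genes, 84.1% of them called (41.3% higher, 42.8% lower). With voom weights on the fragments it was 9.22 and ranked 14. All 8 degradation genes rose as well, with a median of 5.04 against -0.02 over all tested genes. With 1 FPKM added, cel7A-2 (8.49) came closest to cdtC, xyn10A rose by 6.69, and the smallest rise was that of PDE_02736 (4.03). cel61A had 0 to 1 fragments per library in M12 on glucose and a mean of 24.5 FPKM in M12 on cellulose. The added 1 FPKM therefore largely sets its value of 4.63, and whether it rose by more than cdtC is not known.

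On cellulose, where M12 already had 1145 to 1211 FPKM, the altered strains differed from it by less. In the libraries labelled gClrBID, where clrB was lower than in M12, cdtC was 1.87 times as high as in M12 by mean FPKM, with a log2 fold change of 0.90 ± 0.07 (SE, n = 3 per group; adjusted p = 2.0e-08, limma), and all 3 gClrBID libraries lay above all 3 M12 libraries. This change ranked 424 from the top, with 59.4% of the tested genes called (27.3% higher, 32.1% lower). All 8 degradation genes rose, with a median of 2.78 against -0.02 over all tested genes. cel6A rose by 5.69, xyn10A by 4.87, cel5B by 4.85, and PDE_02736 by 0.74.

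In the creA deletion on cellulose cdtC was 2.48 times as high as in M12 by mean FPKM. Its log2 fold change was 1.31 ± 0.07 (SE, n = 3 per group; adjusted p = 8.8e-11, limma), no library of the creA deletion overlapped with M12, and the rank was 358 from the top with 75.4% of the tested genes called (21.2% higher, 54.2% lower). Since the median of all tested genes was -0.28 in this comparison, the value under median-of-ratios scaling, which moves that median by 0.28, was 1.63. Of the 8 degradation genes 7 rose and 1 fell, with a median of 4.94. The rise was 7.81 for cel6A, 7.32 for cel61A, 4.86 for cel7A-2 and 2.85 for bgl2. PDE_02736 fell by 0.30, a call lost under median-of-ratios scaling (0.02) and without creA deletion replicate 1 (adjusted p = 0.052 in limma). Among the regulators clrB fell by 0.50, a call lost under median-of-ratios scaling (-0.18), amyR fell by 1.33, and creA, the deleted gene, by 8.69. xlnR was not called (0.01) and was called higher under that scaling (0.32).

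**Figure D2:**
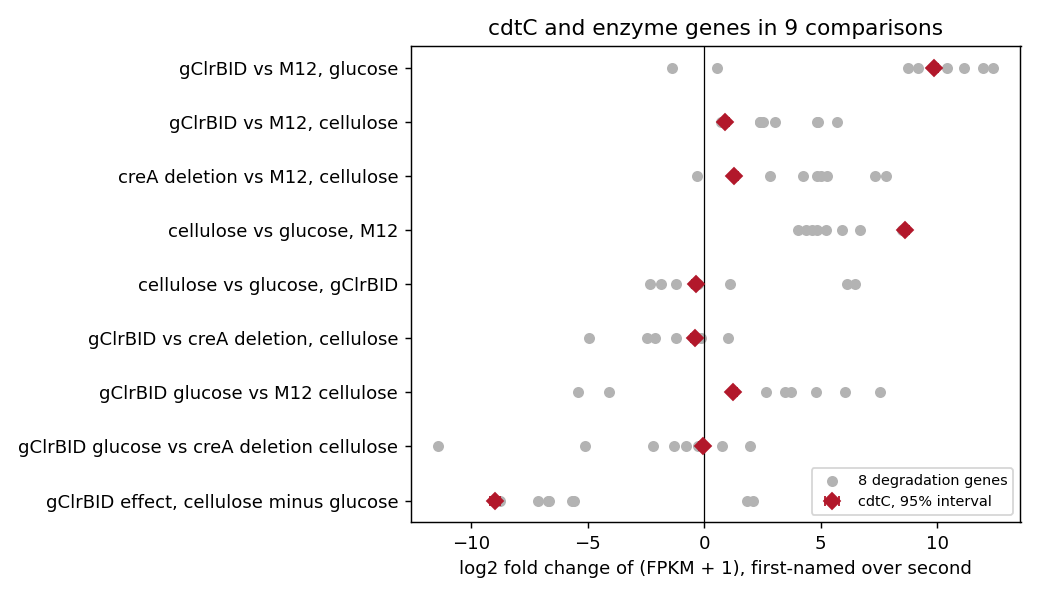
Log2 fold change of cdtC (red diamonds, with 95% intervals mostly narrower than the symbol) and of 8 enzyme genes (grey) in 9 comparisons, each first-named group over the second. With 1 FPKM added, cdtC lies to the right of all 8 enzyme genes for cellulose over glucose in M12 (8.63). Its interval there overlaps that of cel7A-2 (8.49), and the added 1 FPKM largely sets the place of cel61A, which had 0 to 1 fragments per library in M12 on glucose. On cellulose cdtC lies left of all but PDE_02736 for gClrBID over M12 (0.90) and for the creA deletion over M12 (1.31).

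The altered strains were then compared on cellulose. cdtC was lower in the libraries labelled gClrBID, at 2040 to 2294 FPKM, than in the creA deletion, at 2796 to 3102 FPKM. This gave a log2 fold change of -0.40 ± 0.07 (SE, n = 3 per group; adjusted p = 8.4e-05, limma), with 70.2% of the tested genes called (50.3% higher, 19.8% lower). The median of all tested genes was 0.21, and under median-of-ratios scaling, which shifts it by -0.24, cdtC stood at -0.67. Of the 8 degradation genes 6 were lower in gClrBID (median -0.81), of which cel5B (-0.43) lost its call with a pseudocount of 0.1, PDE_02736 was higher (1.04) and xyn10A was not called (-0.14, adjusted p = 0.19 in limma), a call gained under median-of-ratios scaling (-0.41), with voom weights (-0.14) and without M12 glucose replicate 2. cel61A had the largest difference of the 8, at -4.92.

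Within gClrBID cdtC was slightly lower in the libraries labelled cellulose, in which clrB was lower by 2.68 (log2) as well, at 2040 to 2294 FPKM, than on glucose, at 2716 to 2894 FPKM. The log2 fold change was -0.35 ± 0.07 (SE, n = 3 per group; adjusted p = 0.00020, limma), with 83.7% of the tested genes called (49.4% higher, 34.3% lower). It was -0.56 under median-of-ratios scaling, which shifts the median of all genes by -0.17 from 0.21, and -0.23 after rescaling to TPM, in which the length-scaled values of every library have the same sum. Of the 8 degradation genes 5 fell and 3 rose (median -0.34), and the fall of cel7A-2 (-0.25) lost its call after rescaling to TPM. bgl2 fell by 2.30 and cel6A by 1.87, while cel61A rose by 6.47, PDE_02736 by 6.13 and xyn10A by 1.13. cel61A had only 2 to 7 fragments per library in gClrBID on glucose, so the added 1 FPKM understates its rise.

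gClrBID on glucose had more cdtC than M12 on cellulose, at 2716 to 2894 FPKM against 1145 to 1211 FPKM. Strain and carbon source both differ between these groups, so this comparison too places levels only. The log2 fold change was 1.26 ± 0.07 (SE, n = 3 per group; adjusted p = 4.1e-11, limma), or 1.52 under median-of-ratios scaling, and 86.3% of the tested genes were called (34.6% higher, 51.6% lower). Of the 8 degradation genes 6 were higher and 2 lower, with a median of 3.61 against -0.28 over all tested genes. cel6A was higher by 7.56, cel5B by 6.05 and bgl2 by 4.81, whereas PDE_02736 was lower, at -5.39, and cel61A, at -4.08. The added 1 FPKM understates this difference for cel61A, which had 2 to 7 fragments per library in gClrBID on glucose. Of the genes that were higher, all 6 exceeded M12 on cellulose by more than cdtC did, the smallest being cel7A-2 with 2.66.

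A further contrast took the log2 fold change of the libraries labelled gClrBID over M12 on cellulose minus the same fold change on glucose. For cdtC it was -8.98 ± 0.10 (SE, n = 3 per group; adjusted p = 2.0e-18, limma). This was the most negative value of the 8765 tested genes, 68.1% of them called (48.0% higher, 20.1% lower), and it kept that place in the 21 other fits of all groups, namely 6 other settings and 15 fits without 1 library. cel7A-2 (-8.74) and cel5B (-7.13) followed. Of the 8 degradation genes 6 were lower and 2 higher, with a median of -6.17 against 0.26 over all tested genes, and one of the 2, cel61A (1.84), had no call at 0.18 when 0.1 FPKM was added in place of 1, and none at -0.87 with voom weights. The value combines an effect of 9.89 on glucose with one of 0.90 on cellulose. Read the other way, it is the difference between cellulose and glucose in gClrBID (-0.35) less the one in M12 (8.63).

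The level of cdtC relative to the enzyme genes differed between the groups. In M12 on cellulose the mean of cdtC was above that of all 8 degradation genes. It was above 4 of the 8 in gClrBID on cellulose, above 3 in gClrBID on glucose, above 2 in the creA deletion and above 5 in M12 on glucose. The last count orders values near the floor. There cel7A-2 (1.93 FPKM) and xyn10A (1.83 FPKM) lay within the SD of cdtC (1.98 ± 0.298 FPKM). Against cel7A-2, the ratio of the FPKM values per library was 0.399 ± 0.0321 in gClrBID on cellulose, 0.427 ± 0.0101 in gClrBID on glucose and 0.0964 ± 0.00430 in the creA deletion (SD, n = 3 each). It was 1.13 ± 0.0850 in M12 on cellulose and 1.06 ± 0.250 in M12 on glucose, so cdtC and cel7A-2 had similar levels per length on both carbon sources in M12.

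Against cel6A the ratio was 0.642 ± 0.0530 in gClrBID on cellulose, 0.224 ± 0.00828 in gClrBID on glucose and 0.195 ± 0.0143 in the creA deletion, against 18.04 ± 2.57 in M12 on cellulose and 1.53 ± 0.483 in M12 on glucose (SD, n = 3 each). Relative to cel6A, cdtC was thus highest in M12 on cellulose among the 5 groups. Against bgl2, whose product is a beta-glucosidase, the ratio was 1.13 ± 0.0279 in gClrBID on cellulose, 0.293 ± 0.00122 in gClrBID on glucose, 1.18 ± 0.0450 in the creA deletion, 3.45 ± 0.101 in M12 on cellulose and 0.127 ± 0.0187 in M12 on glucose.

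The difference of the log2 ratios from M12 on cellulose was tested for each enzyme gene, 24 differences in all. In gClrBID on cellulose the ratio of cdtC to the enzyme gene was lower than in M12 on cellulose for 7 of the 8 genes, and likewise in the creA deletion, PDE_02736 being the exception in both. In gClrBID on glucose it was lower for 6 of the 8, the exceptions being cel61A and PDE_02736. The libraries did not overlap in any of the 24 differences, and the two-sided exact permutation p was 0.1 for each, before and after adjustment, which is the smallest value that 3 against 3 libraries allow. This exact test therefore cannot pass a threshold of 0.05 with 3 libraries a group, and no other test of the ratios was run. The same count over all tested genes was not made, so the lack of overlap cannot be called particular to these 8 genes. In these group comparisons 59.4% to 86.3% of the tested genes were called, which describes single genes and not ratios to cdtC. All 24 differences share the M12 libraries on cellulose and the cdtC values, so they are not independent. For cel61A in gClrBID on glucose the ratio rests on 2 to 7 fragments per library.

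**Figure D3:**
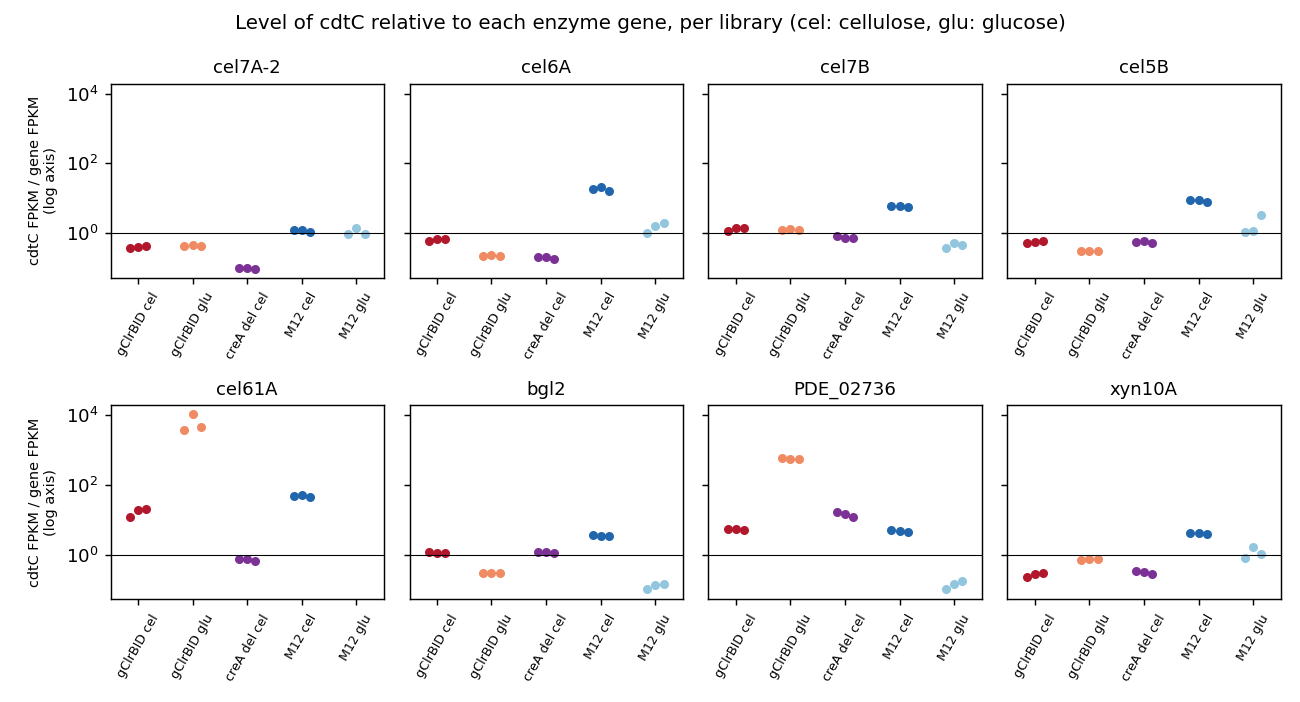
FPKM of cdtC divided by FPKM of each of 8 enzyme genes, on a log axis, with 1 point per library and a line at a ratio of 1. For cel6A the M12 libraries on cellulose lie between 15.6 and 20.7, and every other library lies at or below 1.97. M12 on glucose is left out for cel61A, which is at 0 in some of those libraries.

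The groups stood in a different order for clrB, which encodes the activator, than for cdtC. clrB stood at 73.7 ± 16.5 FPKM in gClrBID on cellulose, 469 ± 16.4 in gClrBID on glucose, 107 ± 5.87 in the creA deletion, 153 ± 6.43 in M12 on cellulose and 10.1 ± 0.345 in M12 on glucose (SD, n = 3 each). The ratio of cdtC to clrB was 30.8 ± 5.32 in gClrBID on cellulose and 6.005 ± 0.298 in gClrBID on glucose, 27.2 ± 2.08 in the creA deletion, 7.74 ± 0.403 in M12 on cellulose and 0.198 ± 0.0346 in M12 on glucose. The libraries labelled gClrBID and creA deletion on cellulose had less clrB transcript than M12 on cellulose and more cdtC transcript, although for the creA deletion the clrB difference lost its call under median-of-ratios scaling (-0.18). Reads from the introduced ClrB mutant and from the native gene are not separated in the table.

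**Figure D4:**
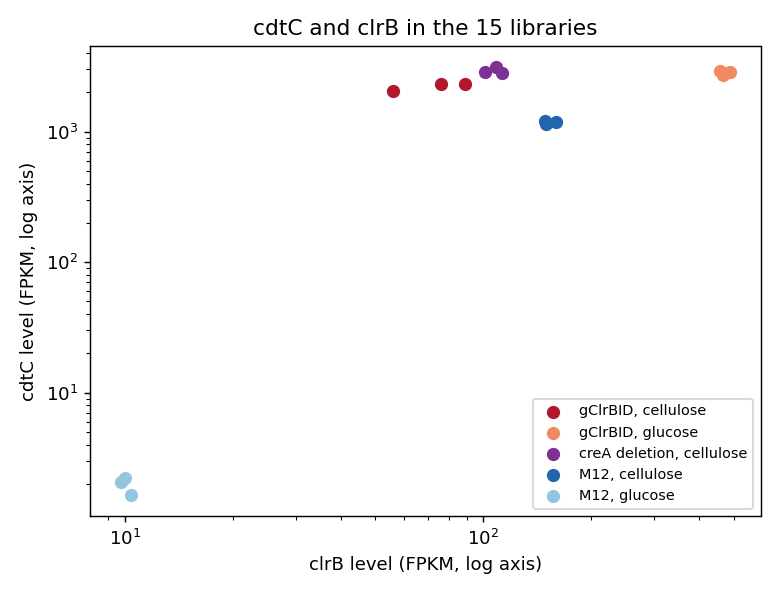
FPKM of cdtC against FPKM of clrB in the 15 libraries, both on log axes, coloured by group. M12 on glucose is low in both genes, and among the remaining 12 libraries cdtC spans 1145 to 3102 FPKM while clrB spans 56.0 to 488 FPKM.

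Genes with a pattern like that of cdtC were ranked by Pearson's r of log2(FPKM + 1) over the 15 libraries, a description that rests on 5 groups rather than on 15 independent points. Among the other 8764 tested genes, 63 had an r of at least 0.9 and 21 of at least 0.95. The highest were PDE_04894 (r = 0.994) and PDE_03010 (r = 0.988), for which the sources used here give no name. PDE_04894 stood at 152 ± 10.5 FPKM in gClrBID on cellulose, 127 ± 11.2 in gClrBID on glucose and 119 ± 4.22 in the creA deletion, against 59.4 ± 5.35 in M12 on cellulose and 0.469 ± 0.302 in M12 on glucose (SD, n = 3 each). It thus shared the near silence in M12 on glucose at a far lower level elsewhere. PDE_03010 was low but not silent there, at 12.5 ± 0.815 FPKM (SD, n = 3), against group means from 86.7 FPKM in M12 on cellulose to 174 FPKM in gClrBID on glucose. The most opposite patterns were those of PDE_06915 (r = -0.994) and PDE_07292 (r = -0.994). PDE_06915 stood at 0 FPKM in all 3 gClrBID libraries on cellulose and at 78.1 ± 13.3 FPKM in M12 on glucose.

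Of the list genes, cel7A-2 (r = 0.973, rank 5), cel7B (0.953, rank 17), xyn10A (0.9502, rank 21), cel5B (0.931, rank 39) and bgl2 (0.921, rank 48) came closest to cdtC. cel6A (0.884), clrB (0.865) and xlnR (0.683) followed, while cel61A (0.564), PDE_02736 (0.406), amyR (0.146) and creA (-0.06) had a lower r. Pearson's r ignores the size of a change. By the root mean square difference of the 5 group means, each gene centred on its own mean, cel7B had a log2 difference of 1.16 from cdtC (rank 4) and cel7A-2 one of 1.28 (rank 6). PDE_04894 had a difference of 1.33 (rank 8) and PDE_03010 one of 2.52 (rank 45). No tested gene came within 1 log2 unit of cdtC on this measure.

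**Figure D5:**
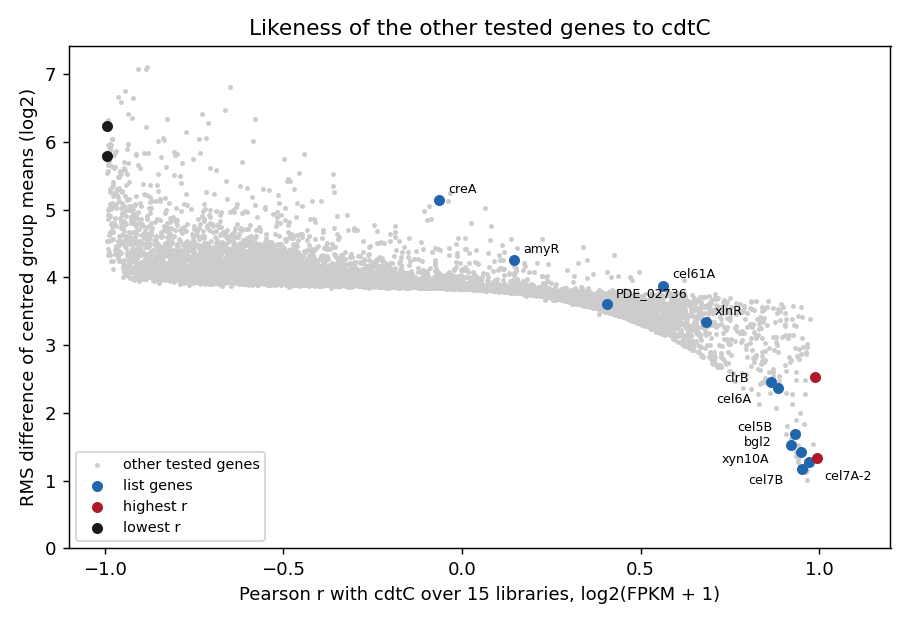
Likeness of 8764 tested genes to cdtC, with Pearson's r over 15 libraries on the horizontal axis and the root mean square difference of centred group means (log2 units) on the vertical axis. Blue points are the 12 list genes, red and black points the genes with the highest and lowest r. cel7A-2 (r = 0.973) and cel7B (difference 1.16) lie close to the lower right corner, where a gene with the pattern of cdtC would be.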

How the data were processed

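mRNA of P. oxalicum mycelia was sequenced from 15 stranded libraries, per the labels' protocols. The authors deposited 1 table of FPKM values. The submitters' processing notes name HISAT2 2.0.0 and featureCounts 1.5.0-p1, and further CASAVA 1.8 and DESeq2, all without roles. Build, annotation, strand setting and treatment of shared fragments are not given in the sources used here. None of the 9976 tags (0) matched the RefSeq gene list of strain HP7-1, so no sequence or coordinate is given.

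A gene's FPKM in a library moves in steps of 1 fragment. Whole fragments, within 5e-05 FPKM, were found for 9789 of 9789 genes above 0, with counted lengths searched among multiples of 3 and scaled so that the fragments sum to the depth. They were used for depth, intervals and 1 alternative.

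Tests used limma 3.58.1 in R 4.3.3 on log2(FPKM + 1), with 1 mean per group over all 15 libraries, an intensity trend and Benjamini-Hochberg adjustment over 8765 genes with at least 1 FPKM in at least 3 libraries. Every adjusted p comes from it unless another test is named. The fit was also run on simulated data, in which every group was drawn from the means of M12 on cellulose and few genes changed. That setting is simpler than these data, and no result here rests on it. Alternatives were a pseudocount of 0.1, no filter, median-of-ratios scaling, TPM, voom weights, only the groups compared, a replicate block and leaving out each library. Full values are given for cdtC, values of the 2 lists (8 degradation genes and 4 regulators) as examples, and the 2 highest and 2 lowest r among all genes. cdtC and the lists were chosen with earlier results of these data known. The test of the ratios, and group means under other scalings, were added after the values were seen.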

Additional observations from a re-analysis of the deposited data

Results flagged for a closer look

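The effect of the ClrB mutant on cdtC differed between carbon sources by -8.98 on the log2 scale (cellulose minus glucose, adjusted p = 2.0e-18 in limma), from 0.90 on cellulose and 9.89 on glucose. It stands out because the same strain contrast gave different values on the 2 carbon sources in a test of the difference itself. The libraries labelled gClrBID on cellulose, which enter it, had less clrB than M12 on cellulose. M12 on glucose, which enters it too, stood at 48 to 61 fragments per library, and the value was -9.57 with voom weights on the fragments.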

How the results depend on the processing

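All 9 fold changes of cdtC kept their direction and their side of the threshold in the 7 other settings and in the 15 fits without 1 library. The comparison of gClrBID on glucose with the creA deletion on cellulose ranged from -0.11 to -0.0061, with an adjusted p from 0.13 to 0.94 in limma. The 24 ratio differences kept their sign in 144 fits without 1 library, chosen after seeing the data. Reversals occurred for list genes only. In the creA deletion PDE_02736 turned to 0.024 under median-of-ratios scaling, and xlnR turned to -0.041 after rescaling to TPM and ranged from -0.013 to 0.033 without 1 library. With voom weights cel61A had an interaction of -0.87. The causes were not tested. Replicate numbers did not pair the libraries, since same-numbered libraries of different groups had correlations of deviations from -0.097 to 0.088 and the own number was highest in 18 of 60 cases. With the number as a replicate block, the calls per direction were 0.982 to 0.999 times those without it, cdtC on glucose stayed at 9.89 (adjusted p = 2.9e-19 in limma), and no call of cdtC changed. Under median-of-ratios scaling the genes called higher and lower turned to 2979 and 2912 for gClrBID over M12 on glucose (1493 and 4797 as deposited), to 3209 and 3075 for the creA deletion (1860 and 4751) and to 2747 and 3138 for gClrBID over the creA deletion (4412 and 1737). The mean level of cdtC moved by more than 1 SD under median-of-ratios scaling in gClrBID on glucose (3110 FPKM), the creA deletion (3357) and M12 on cellulose (1085), and after rescaling to TPM in gClrBID on glucose (2662), settings chosen after seeing the data. Depth limits cdtC only in M12 on glucose.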

Other observations

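The 10 tags numbered next to cdtC, 5 on either side, stood at 142 FPKM or less in every library, and 9 of them were tested. Their r with cdtC over the 15 libraries lay between -0.896 and 0.587. That tag numbers follow the order along a chromosome was not checked, since no annotation of the files' tags was used here.

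The spread of cdtC between libraries was set beside counting error in each group. The variance of its fragments between the 3 libraries was 237 times the counting variance in gClrBID on cellulose, 64.5 times in gClrBID on glucose, 238 times in the creA deletion and 23.4 times in M12 on cellulose, against 1.24 times in M12 on glucose. This measure grows with the number of fragments. By the coefficient of variation M12 on glucose had the widest spread of the 5 groups, at 15.0% against 2.80% to 6.62%. In gClrBID on cellulose, replicate 1 (2040 FPKM) lay below replicates 2 and 3 (2293 and 2294 FPKM), and in the creA deletion replicate 1 (3102 FPKM) lay above replicates 2 and 3 (2859 and 2796 FPKM).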
